A study of Mus musculus with 4 samples.

Results

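The plasma carrier protein genes encode proteins that the liver secretes into blood to bind and transport other molecules, and 10 of them are described here: Alb, Ttr, Trf, Hp, Hpx, Ahsg, Gc, Ambp, Rbp4 and Afm. The 10 genes stand among 22284 protein-coding genes of the annotation (GENCODE M1, mouse build mm9). Their peaks were found by position: a peak was assigned to a gene when its interval came within 5 kb of the gene body. The genes themselves had been selected from the peak lists described here, for their peaks, so every count and level below is a description of these lists and none was tested. The rule gave 39 of the 1508 peaks of the vehicle list and 37 of the 3155 peaks of the FGF19 list.

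SHP (small heterodimer partner, NR0B2) is an orphan nuclear receptor with no DNA-binding domain, and chromatin immunoprecipitation followed by sequencing (ChIP-seq) finds it where other proteins hold it on chromatin. The livers came from wildtype male C57BL/6 mice, 8 to 12 weeks old, that had fasted for 12 h and were injected in the tail vein with vehicle or with 1 mg/kg FGF19, the intestinal hormone released after a meal, 2 h before collection. Each treatment is 1 SHP library with 1 input library of unprecipitated chromatin, and each was pooled from 3 mice. There is therefore no replicate error for any difference between vehicle and FGF19, and no library from a liver without SHP or with a control antibody was analysed here. The lists therefore cannot tell how much of a pileup depends on SHP or how the tags over exons arose, and a peak is called an SHP peak below only because it was called in the SHP library. The SHP libraries held 15473647 filtered tags with vehicle and 13444078 with FGF19, and their inputs held 16164473 and 17367587. The tissue label could not be checked by expression, since the lists hold only peaks.

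Plasma carriers are among the most abundant products of the hepatocyte. Albumin carries fatty acids, bilirubin, drugs and ions and sets the oncotic pressure of plasma. Gc (vitamin D binding protein) and afamin are relatives of albumin built from the same repeated domain, transferrin carries iron, haptoglobin and hemopexin capture free hemoglobin and heme, and transthyretin travels with retinol-binding protein and carries thyroxine. Most of these genes are driven in hepatocytes by factors such as HNF1, HNF4, C/EBP and FOXA at promoters and enhancers near or upstream of the start.

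Nearly all peaks at these genes had their summit in an exon, with 1 exception in the vehicle list and 2 in the FGF19 list. The windows shown next are 281 bases of mm9 read in the direction of transcription, with exon bases in capitals and intron bases in lower case. The first 3 hold the strongest SHP peaks of Alb, at its 3 longest exons, and the fourth holds the peak over the exon at the same place in Gc. The fifth is the exon of Trf with the highest vehicle pileup, and each of these 5 is centred on its vehicle summit. The last is an exon of Alb, also centred, that had no peak in either list.
Alb exon 4, chr5:90892970-90893250, + strand: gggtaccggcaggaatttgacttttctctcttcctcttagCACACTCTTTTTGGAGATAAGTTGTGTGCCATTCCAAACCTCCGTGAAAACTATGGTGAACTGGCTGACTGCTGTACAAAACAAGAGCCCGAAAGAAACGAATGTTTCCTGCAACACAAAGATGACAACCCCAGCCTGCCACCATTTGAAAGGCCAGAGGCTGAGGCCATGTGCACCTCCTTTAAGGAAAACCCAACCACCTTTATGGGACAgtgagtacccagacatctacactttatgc
Alb exon 8, chr5:90897472-90897752, + strand: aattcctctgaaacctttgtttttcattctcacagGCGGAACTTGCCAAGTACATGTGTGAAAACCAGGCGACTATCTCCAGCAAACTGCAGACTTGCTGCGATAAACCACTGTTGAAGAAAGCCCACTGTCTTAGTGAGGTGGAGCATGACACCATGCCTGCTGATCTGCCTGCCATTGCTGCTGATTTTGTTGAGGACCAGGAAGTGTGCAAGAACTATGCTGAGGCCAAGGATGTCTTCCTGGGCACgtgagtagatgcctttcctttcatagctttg
Alb exon 12, chr5:90901462-90901742, + strand: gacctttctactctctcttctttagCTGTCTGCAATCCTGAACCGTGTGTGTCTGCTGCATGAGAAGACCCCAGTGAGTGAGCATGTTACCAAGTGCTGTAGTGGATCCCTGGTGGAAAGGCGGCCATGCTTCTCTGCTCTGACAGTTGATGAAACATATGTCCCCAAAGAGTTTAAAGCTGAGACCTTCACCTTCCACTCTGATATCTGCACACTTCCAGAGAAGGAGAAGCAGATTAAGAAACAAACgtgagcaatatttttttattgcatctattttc
Gc exon 4, chr5:89872400-89872680, - strand: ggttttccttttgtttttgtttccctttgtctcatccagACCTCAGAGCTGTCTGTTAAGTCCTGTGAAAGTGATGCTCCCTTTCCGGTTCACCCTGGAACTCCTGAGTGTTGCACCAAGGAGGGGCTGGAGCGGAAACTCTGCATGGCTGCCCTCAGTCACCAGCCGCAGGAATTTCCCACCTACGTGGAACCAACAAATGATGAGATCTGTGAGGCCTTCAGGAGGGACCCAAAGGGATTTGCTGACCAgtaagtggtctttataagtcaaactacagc
Trf exon 16, chr9:103112774-103113054, - strand: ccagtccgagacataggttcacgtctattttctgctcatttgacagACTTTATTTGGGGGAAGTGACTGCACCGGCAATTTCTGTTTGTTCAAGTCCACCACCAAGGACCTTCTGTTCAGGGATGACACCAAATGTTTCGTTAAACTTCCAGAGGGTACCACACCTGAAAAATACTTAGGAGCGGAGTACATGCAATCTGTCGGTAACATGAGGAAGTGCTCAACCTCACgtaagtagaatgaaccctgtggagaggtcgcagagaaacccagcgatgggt
Alb exon 6, chr5:90894808-90895088, + strand: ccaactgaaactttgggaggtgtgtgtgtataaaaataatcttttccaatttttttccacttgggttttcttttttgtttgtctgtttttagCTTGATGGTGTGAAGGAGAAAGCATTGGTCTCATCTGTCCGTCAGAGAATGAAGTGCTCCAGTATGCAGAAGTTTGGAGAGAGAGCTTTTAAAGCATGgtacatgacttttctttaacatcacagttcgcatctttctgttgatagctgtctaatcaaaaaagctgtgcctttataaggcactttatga
In each of the first 5 windows the centre lay inside the capitals and the exon ended inside the window on both sides. Exon 6 of Alb, with 98 bp, is the shortest exon of the 6 shown.

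Of the 10 genes, 9 had a peak in the vehicle list and 9 in the FGF19 list, and they were the same 9 genes. Over all protein-coding genes, 7.94% had a peak within 5 kb in the vehicle list, 16.4% in the FGF19 list and 4.32% in both. Trf had 11 peaks in each list, Alb 10 with vehicle and 8 with FGF19, Rbp4 4 and 3, Hpx 3 and 4, Ahsg 3 and 4, Ambp 3 and 2, Ttr 2 and 2, Gc 2 and 2, and Hp 1 and 1. At least 2 peaks were found at 8 of the 10 genes in each list, against 0.696% of protein-coding genes with vehicle and 1.8% with FGF19. No protein-coding gene had more vehicle peaks than Trf, but Gm20388 had 22 peaks with FGF19. Many peaks along 1 gene were also found outside the carriers. Cyp2e1 had 7 with vehicle and 6 with FGF19, Pck1 6 and 6, and Apob 5 and 5. Afm had none in either list. Since the genes were chosen by their peaks, nothing follows from these counts about chance. The distance of 5 kb mattered little: every assigned peak touched its gene body, and the nearest peak outside a window was 39.927 kb from its gene, beyond Ahsg in the vehicle list, with a pileup of 14 tags and a fold enrichment of 3.94.

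The summit lay in an exon of the gene in 38 of 39 vehicle peaks and in 35 of 37 FGF19 peaks. Only 3 summits in each list lay within 1 kb of the start of their gene, at Ahsg and Rbp4 with vehicle and at Ahsg, Ambp and Rbp4 with FGF19. Counted more strictly, with the summit in an exon and over 1 kb from the transcription start site (TSS) of every annotated transcript, 32 of 39 vehicle peaks (82.1%, exact binomial 95% interval 66.5 to 92.5) and 29 of 37 FGF19 peaks (78.4%, 61.8 to 90.2) qualified. Among the other peaks the shares were 15.8% of 1469 with vehicle and 7.86% of 3118 with FGF19, and 74.3% and 82.6% of those had the summit within 1 kb of a TSS. By gene, all 9 with peaks had at least 1 such exonic summit in each list, against 0.826% of protein-coding genes with vehicle and 0.898% with FGF19. The intervals cover counting error only and treat peaks as independent, although many share a gene. Trf and Alb gave 11 and 10 of the 39 vehicle peaks, and 11 and 8 of the 37 FGF19 peaks.

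**Figure D1:**
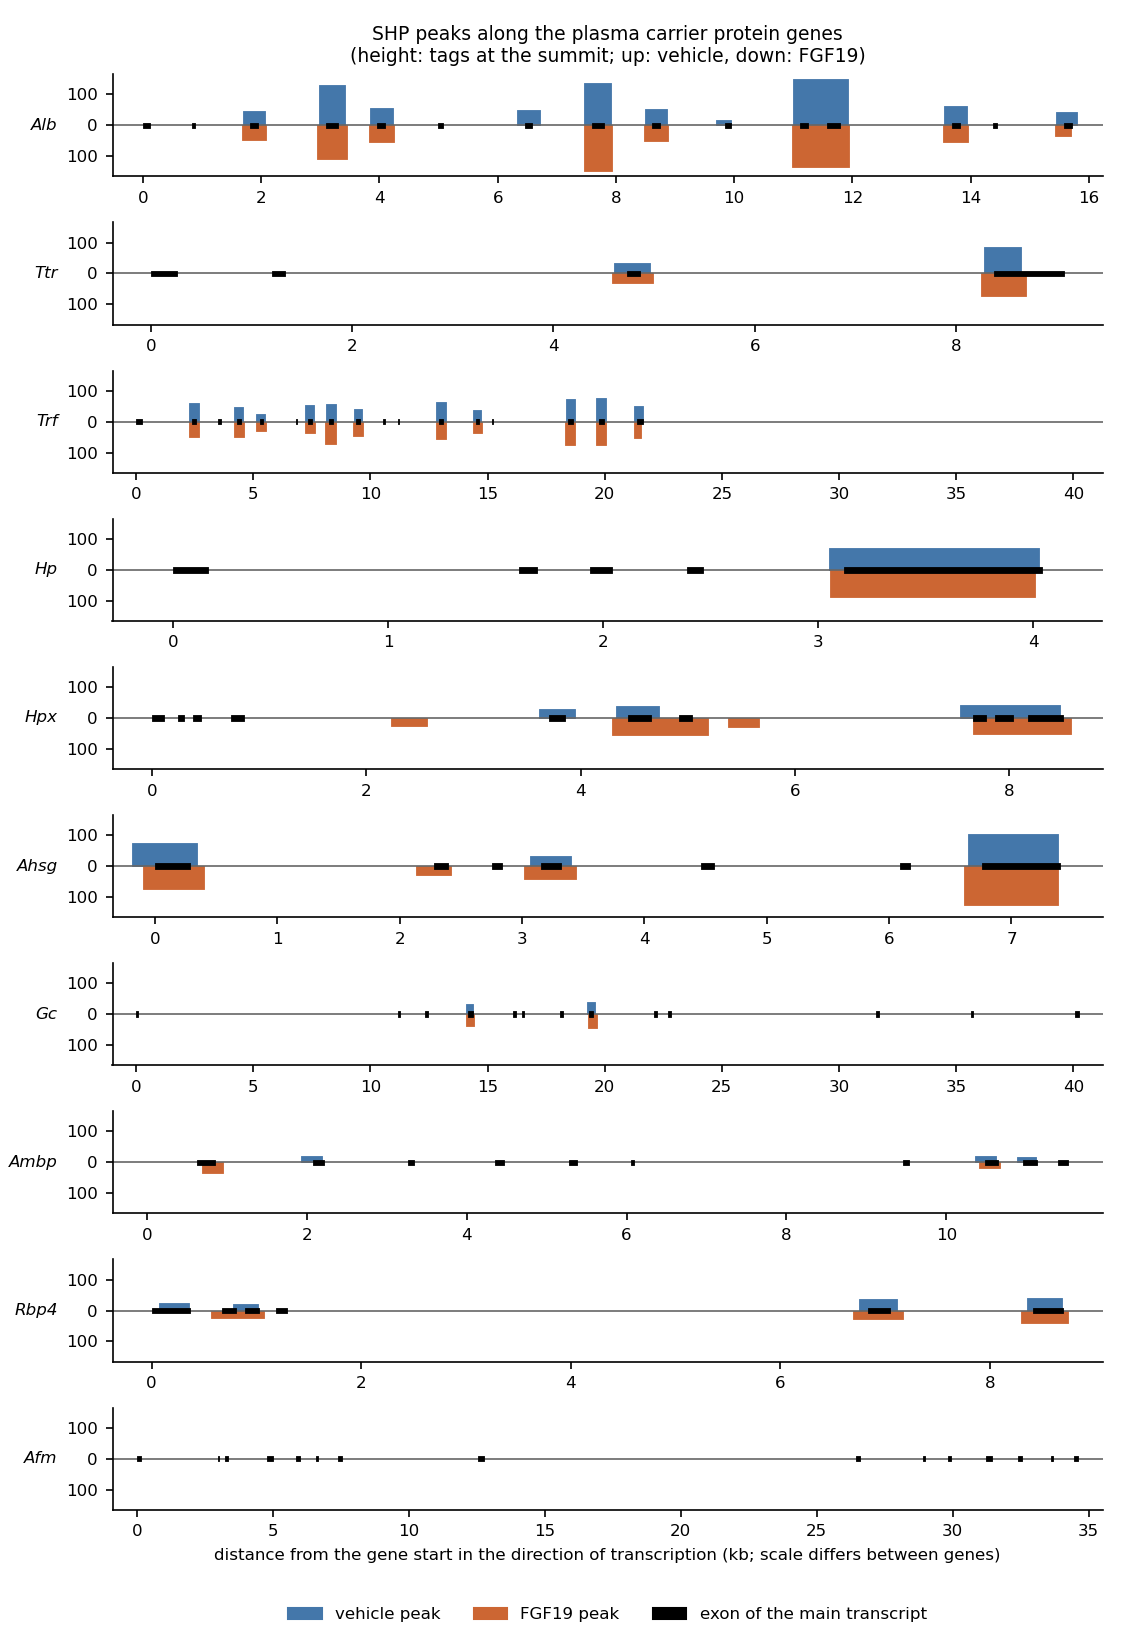
SHP peaks along the 10 genes, plotted by distance from the gene start in kb, with bar height giving the pileup of tags at the summit (vehicle upwards, FGF19 downwards) and black boxes giving exons of the main transcript. Nearly all bars stand over exons, 11 in each list at Trf and none at Afm, and the FGF19 bars in introns 4 and 7 of Hpx touch no exon. The Trf body runs past its last exon because a second annotated entry reads through into the next gene.

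Exons make up 10.1% of the span of the 10 main transcripts, and peaks covered 53.6% of exon bases with vehicle and 50.9% with FGF19, against 5.09% and 6.13% of intron bases. Of the 103 exons, 35 were at least 50% covered in both lists, 6 with vehicle only, 4 with FGF19 only and 58 in neither. The exons covered with vehicle had a median length of 173 bp and the uncovered ones of 109 bp, and the same medians were found with FGF19. In the 9 genes with peaks, exons under 100 bp were covered in 1 of 21 cases with vehicle and in 0 of 21 with FGF19. Exons from 100 to under 150 bp were covered in 13 and 14 of 33, those from 150 to under 200 bp in 13 and 11 of 15. Those of 200 bp or more were covered in 14 and 14 of 18. The long exons not counted as covered were first exons and exon 4 of Ttr, of which peaks covered 38.5% and 45.1%. The first exons were those of Ttr and Trf in both lists, of Ambp with vehicle and of Rbp4 with FGF19. The only covered exon under 100 bp was exon 10 of Alb, 98 bp long, reached with vehicle by a peak whose summit lay in intron 9. Exons share genes and libraries and are no replicates, so this relation has no test.

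**Figure D2:**
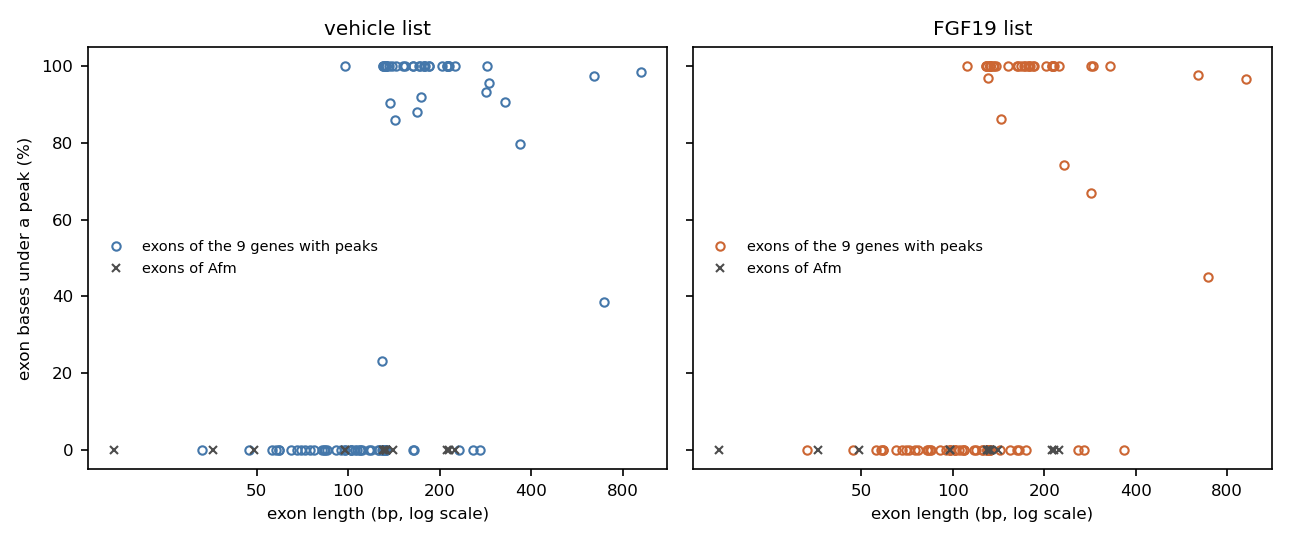
Share of each exon's bases under a peak (%) against exon length (bp, log scale) in the vehicle and FGF19 lists, with open circles for exons of the 9 genes with peaks and crosses for Afm. Nearly all exons under 100 bp sit at 0. In the 9 genes with peaks, 14 of 18 exons of 200 bp or more were at least 50% covered in each list, while all exons of Afm sit at 0.

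The peaks followed the exons closely. Of the vehicle peaks with an exonic summit, 35 touched 1 exon only, and the summit was a median of 14.5 bp from the centre of that exon, within 50 bp in 31 of 35. With FGF19, 31 peaks touched 1 exon only, with a median of 13 bp and 29 of 31 within 50 bp. Only exonic summits were taken, on exons with a median of 177 bp and 178 bp, so exon length limits this distance. For exonic peaks of other genes, on longer exons, its median was 97.25 bp and 119.25 bp. Exon length was not matched for this measure. At the carrier genes the exon lay wholly inside the peak in 26 of 35 and 25 of 31 cases. The peak ran past the exon edge by a median of 108.5 bp with vehicle and 128.5 bp with FGF19, and the peak caller had stretched each tag to 240 bp and 260 bp, so that a tag centred on the exon edge reaches 120 bp and 130 bp beyond it. Exonic peaks of other genes, over 1 kb from every TSS and on 1 exon, numbered 216 and 226 and lay on longer exons, with medians of 810.5 bp and 896.5 bp. Those exons were wholly inside the peak in 19.4% and 17.3% of cases. Among exons of at most 250 bp the difference was smaller. There the exon was wholly inside in 25 of 28 and 23 of 25 cases at the carrier genes. At other genes it was wholly inside in 28 of 36 and 24 of 34. For these exons the peak ran past the edge by a median of 115.5 bp and 133.5 bp at the carrier genes. At other genes the medians were 71 bp and 102 bp.

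Only 3 summits lay outside an exon. The vehicle list had the one in intron 9 of Alb, with 18 tags and a fold enrichment of 3.39. The FGF19 list had both others, in intron 4 of Hpx (25 tags, 3.53) and intron 7 of Hpx (28 tags, 3.32). No other peak at these genes had a lower fold enrichment in the list concerned.

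Alb, which encodes albumin, lies on chromosome 5 from 90889915 to 90905629 on the plus strand and has 15 exons. Its largest pileups were at exons 4, 8 and 12, with 212, 215 and 224 bp the 3 longest of the gene. Exon 12 had 149 tags with vehicle (exact Poisson 95% interval 126 to 175) and 135 with FGF19 (113 to 160), exon 8 had 136 (114 to 161) and 147 (124 to 173), and exon 4 had 131 (110 to 155) and 109 (89.5 to 131). These intervals cover counting error only and overlap between the lists at each exon. Fold enrichment was 25.9 and 23.0 at exon 12, 22.6 and 20.6 at exon 8, and 17.1 and 17.2 at exon 4. By fold enrichment exon 12 was in place 3 of all vehicle peaks and in place 6 of all FGF19 peaks.

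The other exonic summits of Alb were on shorter exons and had fewer tags. The 6 vehicle peaks with their summit on exons of 130 to 144 bp had 43 to 61 tags and the 5 FGF19 peaks on exons of 133 to 144 bp had 33 to 54, so that neither range reached that of the 3 long exons. Exon 7 had a vehicle peak of 51 tags and a fold enrichment of 8.25 with no FGF19 peak. Exons 1, 2, 6 and 14 were uncovered in both lists, and exon 1 holds the start of the gene. Exon 11, 139 bp long, shared the wide peak whose summit was on exon 12.

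Gc and Afm share the exon plan of Alb, which allows a comparison place by place. Exon 4 has 212 bp in all 3 genes, and exon 8 has 215 bp in Alb and Afm and 203 bp in Gc. Exon 12 has 224 bp in Alb and Afm and 59 bp in Gc. Gc, on chromosome 5 from 89846549 to 89886790 on the minus strand, had peaks at exons 4 and 8 and nowhere else in its 13 exons. The pileup was 32 tags with vehicle and 38 with FGF19 at exon 4, and 40 and 44 at exon 8, with fold enrichment of 6.62 and 7.20, and of 4.74 and 7.01. These are the places that carried 109 to 147 tags in Alb in either list. The exons of 130 and 133 bp of Gc, numbers 3, 5, 7, 9 and 11, had no peak, while those of 130 and 133 bp in Alb had one with vehicle. Afm, 34612 bp long and downstream of Alb on the same strand of chromosome 5, had no peak at any of its 16 exons, those of 212, 215 and 224 bp included. The peak nearest to Afm was that on the last exon of Alb, 42.253 kb away with vehicle and 42.349 kb with FGF19. The lists give no value where no peak was called, so the level at Afm is unknown apart from being under the cutoff.

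Trf encodes transferrin, the iron carrier of plasma, on chromosome 9 from 103111125 to 103132774 on the minus strand. Its 11 peaks lay on the same 11 exons in both lists, numbers 2, 4, 5, 7, 8, 9, 12, 13, 15, 16 and 17 of 17. The exons covered had a median length of 177 bp and the others of 78 bp. The pileup ran from 25 to 75 tags with vehicle (median 53) and from 30 to 77 with FGF19 (median 50), and exon 5 was lowest in both. Exon 16 had 75 tags in each list and exon 15 had 73 with vehicle and 77 with FGF19. Exon 17, the longest with 284 bp, had only 49 with vehicle and 52 with FGF19. The peaks on exons of 130 to 185 bp reached 75 and 77, so the order by exon length seen at Alb was not seen at Trf. Fold enrichment at exon 16 was 15.3 with vehicle and 9.67 with FGF19, which differ although the tag numbers are equal, and the background derived from them was 3.96 with vehicle and 6.86 with FGF19. Some summits of Trf, on exons 2, 7 and 8, lay within 1 kb of the start of a shorter annotated transcript, which is why 8 of the 11 counted as exonic and away from every TSS.

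Hp encodes haptoglobin, which binds free hemoglobin, on chromosome 8 from 112099030 to 112103072 on the minus strand. Its single peak in each list covered its last and longest exon, number 5, with 920 bp. The pileup was 70 tags with vehicle (54.6 to 88.4) and 88 with FGF19 (70.6 to 108). Fold enrichment had the opposite order, at 14.1 with vehicle and 5.96 with FGF19, beside a background of 4.03 and 13.9. The summits were 180 bp apart, the widest gap among these genes.

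Hpx encodes hemopexin, which binds free heme and delivers it to the liver, on chromosome 7 from 112740127 to 112748630 on the minus strand. Exon 6, with 213 bp, had 40 tags with vehicle and 55 with FGF19, and fold enrichment was 10.0 and 6.69. The peak with its summit on exon 10 ran over exons 8 to 10 and had 41 and 52 tags, with fold enrichment of 8.16 and 5.84. So the tag numbers were higher with FGF19 at both while the fold enrichments were lower. The vehicle list also had exon 5, with 30 tags, and the FGF19 list both intronic summits given above.

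Ttr encodes transthyretin, which carries thyroxine and binds retinol-binding protein, on chromosome 18 from 20823751 to 20832825 on the plus strand. It had peaks on exons 3 and 4 of its 4 exons. Exon 4, the last, had 84 tags with vehicle (67 to 104) and 74 with FGF19 (58.1 to 92.9), and exon 3 had 35 and 32. Fold enrichment at exon 4 was 11.8 with vehicle and 18.8 with FGF19, beside a background of 6.22 and 2.99. Exons 1 and 2 had no peak in either list.

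Rbp4 encodes the retinol carrier of plasma, on chromosome 19 from 38191110 to 38199811 on the minus strand. Its last exon, number 6, had 42 tags with vehicle and 40 with FGF19, exon 5 had 37 and 28, and exon 3 had 21 and 23. Fold enrichment was 6.38 and 12.3 at exon 6, 7.80 and 9.36 at exon 5, and 3.86 and 4.58 at exon 3, so it was higher with FGF19 at all 3. The vehicle list alone had a peak on exon 1, the longest exon with 367 bp. That peak had 25 tags and a fold enrichment of 3.85, its summit 153 bp from the gene start.

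Ahsg encodes fetuin-A, a binder of calcium phosphate, on chromosome 16 from 22892115 to 22899511 on the plus strand. Exon 7, the last and longest with 642 bp, had 105 tags with vehicle (85.9 to 127) and 127 with FGF19 (106 to 151), and fold enrichment of 19.1 and 17.1. Exon 1 had 74 and 75 tags, with the summit 191 bp and 155 bp from the gene start, and was the only first exon of these genes with a peak in both lists. Exon 4 had 34 and 43 tags, and exon 2 had 29 with FGF19 only.

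Ambp encodes the precursor of alpha-1-microglobulin and bikunin, a heme-binding carrier and a protease inhibitor, on chromosome 4 from 62804309 to 62815833 on the minus strand. Its median of 19 tags with vehicle was the lowest of the 9 genes. Exon 8 had 21 tags with vehicle and 18 with FGF19, and it was the only place with a peak in both lists. Exons 2 and 9 had 19 and 17 tags with vehicle only. Exon 1 had 33 tags and a fold enrichment of 6.70 with FGF19 only.

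Set beside the other peaks, those at the carrier genes had more tags. The median pileup was 46 with vehicle and 50 with FGF19, against 24 and 24 for the other peaks, and the median fold enrichment was 7.80 and 6.81 against 4.13 and 4.03. The median background was 4.61 and 6.19 against 4.84 and 5.05. The carrier genes held 7 of the 20 highest vehicle peaks by fold enrichment and 5 of the 20 highest FGF19 peaks. Exonic peaks of other genes over 1 kb from every TSS had median fold enrichments of 5.21 and 4.88.

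**Figure D3:**
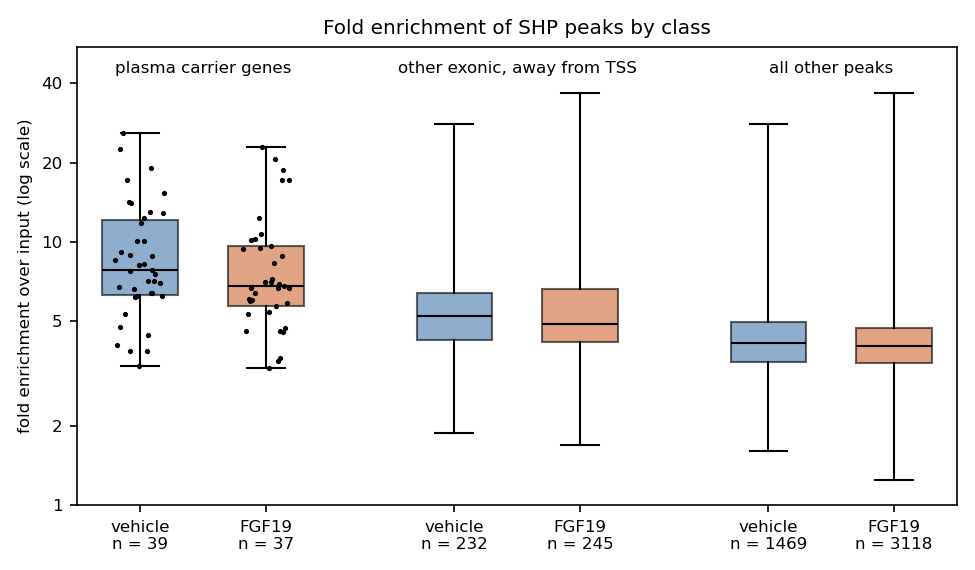
Fold enrichment over input (log scale) of peaks at the carrier genes, of other exonic peaks over 1 kb from every TSS, and of all other peaks, for each list. Boxes give the median and quartiles, whiskers the range and dots the single carrier gene peaks. The carrier gene medians of 7.80 and 6.81 lie above the other medians, and the highest single values are outside these genes.

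Vehicle and FGF19 peaks met more often at these genes than elsewhere in the lists. An FGF19 peak overlapped 33 of 39 vehicle peaks (84.6%, 69.5 to 94.1) against 44.5% of the other vehicle peaks, and a vehicle peak overlapped 33 of 37 FGF19 peaks (89.2%, 74.6 to 97.0) against 21.0% of the others. At the 33 common regions the summits were a median of 15 bp apart and at most 50 bp apart in 29, against a median of 61 bp at the other 645 common regions. The carrier gene peaks stood further above the cutoff, with a median -log10 q of 25.2 with vehicle and 22.7 with FGF19. For the other peaks it was 5.07 and 5.08. Peaks were matched neither for strength nor for place, and 74.3% and 82.6% of the other peaks had the summit within 1 kb of a TSS. The part of strength or place in the overlap and in the summit distances was therefore not tested. No comparison was made with other exonic peaks alone, and the intervals again treat peaks as independent. The 6 unmatched vehicle peaks had 17 to 51 tags and the 4 unmatched FGF19 peaks 25 to 33.

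How FGF19 compared with vehicle at the common regions depended on the measure. Fold enrichment was higher with FGF19 at 12 of 33 regions and lower at 21, with a median log2 ratio of -0.18 and a range from -1.24 at Hp to 0.95 at exon 6 of Rbp4. Over all 678 common regions the median was -0.02, and 48.5% were higher with FGF19. The depth-scaled pileup, the tags at the summit divided by the filtered tags of the library, was higher with FGF19 at 27 of 33, with a median log2 ratio of 0.23. Over all common regions 73.3% were higher and the median was 0.20, so the carrier genes lay near the general level. The exact interval of that ratio, for counting error only and not adjusted for the 33 regions, lay above 0 at 4 regions and below 0 at none, against 4.72% and 1.47% of all common regions. The 4 were exon 8 of Trf (0.53, interval 0.02 to 1.06), exon 5 of Hp (0.53, 0.06 to 1.01), exon 6 of Hpx (0.66, 0.05 to 1.29) and exon 7 of Ahsg (0.48, 0.09 to 0.86). The lower limits of all 4 lay below the median of 0.20 over all common regions, so none stood clear of it. Fold enrichment was lower with FGF19 at all 4, with log2 ratios of -0.46, -1.24, -0.58 and -0.15 in the same order. The longer tag extension with FGF19 has a log2 ratio of 0.12 to that with vehicle, which also exceeds the 4 lower limits. Its part in these ratios was not tested.

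The background was not read from the input but worked back from each peak, by dividing its pileup plus 1 by its fold enrichment and taking off 1, so where the pileups of the lists are close it must run against the fold enrichment, and it is no separate measurement. It was higher with FGF19 at 22 of 33 regions, with a median log2 ratio of 0.29 against 0.02 over all common regions, and at 9 of 11 in Trf. By gene, fold enrichment was lower with FGF19 at 9 of 11 regions of Trf, 6 of 8 of Alb, 2 of 2 of Hpx and the 1 region each of Hp and Ambp. It was higher at 3 of 3 of Rbp4, 2 of 2 of Gc, 2 of 3 of Ahsg and 1 of 2 of Ttr.

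**Figure D4:**
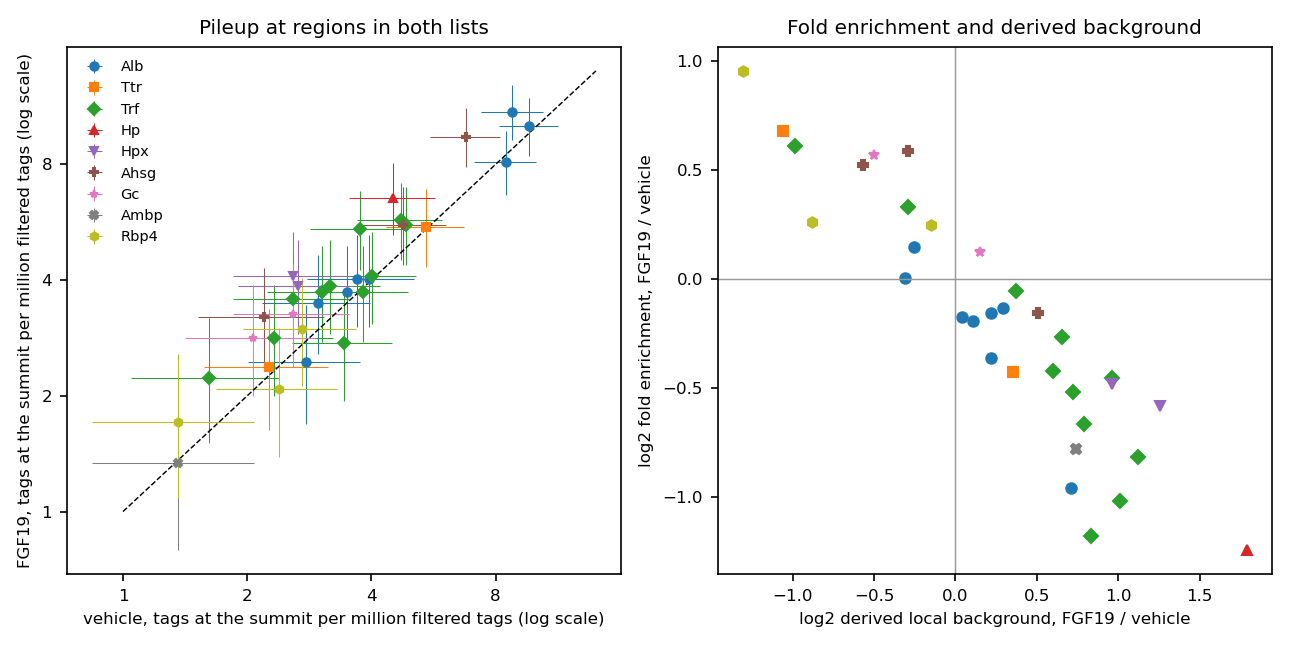
Left, depth-scaled pileup with FGF19 against vehicle at the 33 common regions (both axes log scale), with bars for exact Poisson 95% intervals and a dashed line of equality, which 27 of 33 points exceed. Right, log2 ratio (FGF19 over vehicle) of fold enrichment against that of the derived background, an inverse relation that the formula fixes where pileups are close, with Hp at the far right.

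Sequence around the summits was compared by exact matches to 7 motifs, on either strand within 100 bp. The nuclear receptor half-site AGGTCA was in 5 of 39 vehicle windows and 2 of 37 FGF19 windows, against 8.99% and 7.15% of the other peaks. The C/EBP motif TTGCNNAA was in 4 and 3 windows, against 5.38% and 3.98%, and the NF-Y motif ATTGGC in 5 and 5, against 11.2% and 11.1%. The HNF4-type motif CAAAGTCCA, the HNF1 half-site GTTAAT and the FOXA motif TGTTTAC were in none of the windows in either list, and in at most 2.31% of the others. The YY1/SRE core AANATGGC was in 0 of 39 and 0 of 37 windows, which allows a share of up to 9.03% and 9.49% by the exact interval, against 10.0% and 7.63% of the other peaks. The median GC content was 51.7% and 51.2% against 63.7% and 68.7%. Of the other peaks, 74.3% and 82.6% had the summit within 1 kb of a TSS, while the carrier gene windows lay mostly on exons. Motifs and GC content were not compared with other exonic peaks, so these differences cannot be told apart from that of place. A match is a run of letters and no site, and its absence tells nothing of the factor.

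Other genes of the same kind were taken as lists. The shares of all protein-coding genes to set beside them are 7.94% with vehicle, 16.4% with FGF19 and 4.32% in both. Of 22 other plasma carriers and binders, 6 had a peak with vehicle, 8 with FGF19 and 4 in both, and 3 of these had an exonic summit over 1 kb from every TSS in both lists. Sepp1, the selenium carrier, had the most tags, 64 in each list, with fold enrichment of 12.9 and 13.2. Igfbp4, a binder of insulin-like growth factors, had 45 and 41 tags and fold enrichment of 9.36 and 8.44, and Hrg, histidine-rich glycoprotein, had 22 and 23 tags. The fourth, Apom, a carrier on lipoproteins, had its strongest peaks at 127 bp and 69 bp from a TSS. Cp and Fetub had a peak with vehicle only, and Igfals, Igfbp1, Igfbp2 and Orm1 with FGF19 only.

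Of 15 genes for receptors and cell-side handling of the cargo, 4 had a peak with vehicle, 3 with FGF19 and 2 in both, the ferritin genes Fth1 and Ftl1. The FGF19 count is near the share of 16.4% over all genes. Fth1 had 48 and 45 tags with its strongest summits 186 bp and 182 bp from a TSS. Asgr1 and Tfrc, the transferrin receptor, had a peak with vehicle only and Stra6 with FGF19 only. Of 11 hepatocyte transcription factor genes, 3 had a peak with vehicle, 5 with FGF19 and 2 in both, Cebpa and Hnf4a. Nr0b2, which encodes SHP, had one with vehicle only, and Cebpb, Dbp and Foxa1 with FGF19 only.

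The genes most like the carriers were sought by the share of exon bases, over all transcripts merged, under a peak, taking the lower of the 2 lists. The 5 highest outside the carriers were Sephs2 (92.8%), Gpx1 (86.0%), Serpina3k (79.3%), Pgrmc1 (76.4%) and Gjb1 (73.8%), each with 1 to 4 peaks per list. This measure does not ask where the summit lies. Exonic summits over 1 kb from every TSS were found in both lists only at Serpina3k (3 and 3) and Pgrmc1 (1 and 1). Sephs2 had 1 with FGF19 only, Gjb1 had 1 with vehicle only, and Gpx1 had none. Ahsg followed in place 6 with 73.0%, Alb was in place 9 with 70.8%, Hp 11, Hpx 14, Rbp4 22, Trf 33, Ttr 58, Gc 80 and Ambp 83. Of the 560 genes above 0 in both lists, the median was 5.11%. Sephs2 has 1359 exonic bp and Trf has 4230 with its read-through entry, so a single peak covers more of the former.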

How the data were processed

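The authors pooled chromatin from 3 mice per treatment, sequenced 1 SHP library and 1 input library each, aligned the reads to mm9 with Bowtie 1.0.0 allowing up to 2 mismatches, and called peaks with MACS2 2.0.10.20130501 against the input at a q cutoff of 0.05, with duplicate tags removed down to 1. The signal deposited is the pileup, the number of extended tags over the summit, and the fold enrichment deposited is a ratio to the local input background. The authors' lists also give the -log10 of the p-value and q-value. The input held more tags and was scaled down to the ChIP library.

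The members and lists were chosen with earlier results of these data known, and the exon measures and the main transcript of Trf after its values were seen. A peak belonged to a gene when it shared at least 1 bp with the body extended by 5 kb. The background was (pileup + 1) / fold enrichment - 1. Peaks sharing at least 1 bp formed a region, and the strongest peak of each list was compared. Exon numbers follow 1 main transcript per gene. Trf was annotated as 2 entries, which were merged. All members were named with their peaks, and 5 other genes by exon coverage. Intervals of 95% (exact binomial, exact Poisson) cover counting error only. The binomial ones treat peaks as independent, although many share a gene. A peak list holds no value below its cutoff. The coverage and overlap code was tested on simulated data. The tools were scipy 1.17.1, pandas 2.3.3, numpy 2.4.6, networkx 3.6.1 and matplotlib 3.10.9 under Python 3.11.15. Alternatives covered the distance, thresholds, overlap and measure. 1 gene of the lists is not reported here, and counts leave it out.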

Additional observations from a re-analysis of the deposited data

How the results depend on the processing

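The counts of genes and peaks changed little under other settings. Those were distances of 0 kb and 10 kb, a -log10 q of at least 3, and the summit in place of the interval. An FGF19 list shortened to the length of the vehicle list was also used. There were 38 to 39 vehicle peaks, 34 to 37 FGF19 peaks, and 9 genes with a peak in each list. Under these settings the exonic share was 82.1% to 84.2% with vehicle and 78.4% to 82.4% with FGF19. With 1 kb counted from the member's own start alone, it rose to 89.7% and 86.5%. With summits at most 100 bp apart, 8 genes had a peak in both lists. The median log2 ratio of fold enrichment at common regions, -0.18, changed sign when depth-scaled pileup was used (0.23) and when pileup was used (0.031). The cause was not tested. Without the Trf regions, an alternative chosen after seeing the data, it was -0.14 over 22 regions, and depth-scaled pileup was higher at 18 of 22.

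No paired analysis was possible because each treatment is 1 pooled library, and for the same reason no replicate was left out. Depth limits what is said of regions near the cutoff: at 17 tags the interval for counting error ran from 9.9 to 27.2, and a peak absent from 1 list is not by itself a difference.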
